A study of Fragaria vesca with 8 samples.

Results

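The 4 empty-vector (EV) libraries among the 8 RNA-seq libraries of the study were compared with each other. They are all the samples labelled as controls, namely replicates 1 and 2 of the *FvMYB46* overexpression control and replicates 1 and 2 of the *FvVND4c* overexpression control. They were chosen by label, with earlier results of these data known. All 4 come from wild-type fruit of woodland strawberry (*Fragaria vesca*, the white-fruited "Yellow Wonder"), were infiltrated with agrobacterium carrying the vector without a transgene, and were collected 7 days after infiltration. The remaining 4 libraries come from wild-type fruits that received *35S:FvVND4c* or *35S:FvMYB46*, 2 libraries each, for which the constitutive 35S promoter drives the transgene. Fruits were injected at the transition from green to white, and several fruits were collected per treatment. Expression after such an injection is transient, and the share of fruit cells that was reached is not stated. Nor do the labels or the methods state whether both sets were infiltrated on the same day and how fruits were split over the libraries. The labels list 2 libraries per group while the methods speak of more replicates and describe them as biological. P-values measure the spread between the libraries at hand. As the split of fruits is not stated, part of that spread may still be technical. Since the vector, the genotype and the time point were the same, the comparison shows how far control fruits of the *FvVND4c* and *FvMYB46* experiments differed from each other, and how far the replicates within each did.

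Agroinfiltration delivers a T-DNA into the cells around the injection site, and the bacterium, the wound and the buffer act on the tissue in control fruits too. For this reason an EV control is made beside each construct. Strawberry receptacle at this stage passes from growth to ripening, when genes of the cell wall, of pigments and of sugar metabolism change quickly. VND proteins are NAC transcription factors and MYB46 is a MYB transcription factor. In *Arabidopsis* both switch on the secondary cell wall program of xylem cells.

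Total counts ranged from 11089689 to 12845942 in the EV libraries and from 9765362 to 12845942 in the whole series. No gene held more than 0.78% of the counts of any library, and the top 10 genes together held 3.62% to 5.04%. A level of 3 counts in 1 library, taken as the floor for a zero there and covering counting error only, corresponded to 0.240 to 0.258 CPM (counts scaled to a common library total) in the EV libraries. CPM values were computed with totals scaled by the TMM method of edgeR and are not scaled by gene length. Gene identifiers follow the v4.0.a2 annotation of the *F. vesca* genome. No table used here pairs them with names, so genes are given by identifier and position. The transgenes and the markers of fruit tissue were therefore not analysed here. In bulk fruit tissue, fewer cells of a type and less RNA per cell cannot be told apart.

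Control fruits of the *FvVND4c* and *FvMYB46* experiments differed from each other about as much as, or more than, the *FvMYB46* EV replicates did. The distance used was the root mean square (RMS) difference of log2(CPM + 0.5) over the 17609 genes with a mean of at least 1 CPM. It was 0.232 between the *FvVND4c* EV replicates and 0.414 between the *FvMYB46* EV replicates. Across the experiments, *FvMYB46* EV replicate 1 was 0.413 and 0.416 away from the *FvVND4c* EV libraries, and replicate 2 was 0.506 and 0.459 away. Replicate 1 of the *FvMYB46* EV was thus as close to either *FvVND4c* EV library as to its own replicate. The overexpression replicates were 0.357 (*FvVND4c*) and 0.232 (*FvMYB46*) apart, and libraries of overexpression and EV of the same experiment were 0.694 to 0.930 apart. Counted by gene, 39 of these 17609 genes (0.221%) differed over 2-fold between the *FvVND4c* EV replicates and 642 (3.65%) between the *FvMYB46* EV replicates. Between EV libraries of different experiments, 622 to 922 genes (3.53% to 5.24%) did.

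**Figure D1:**
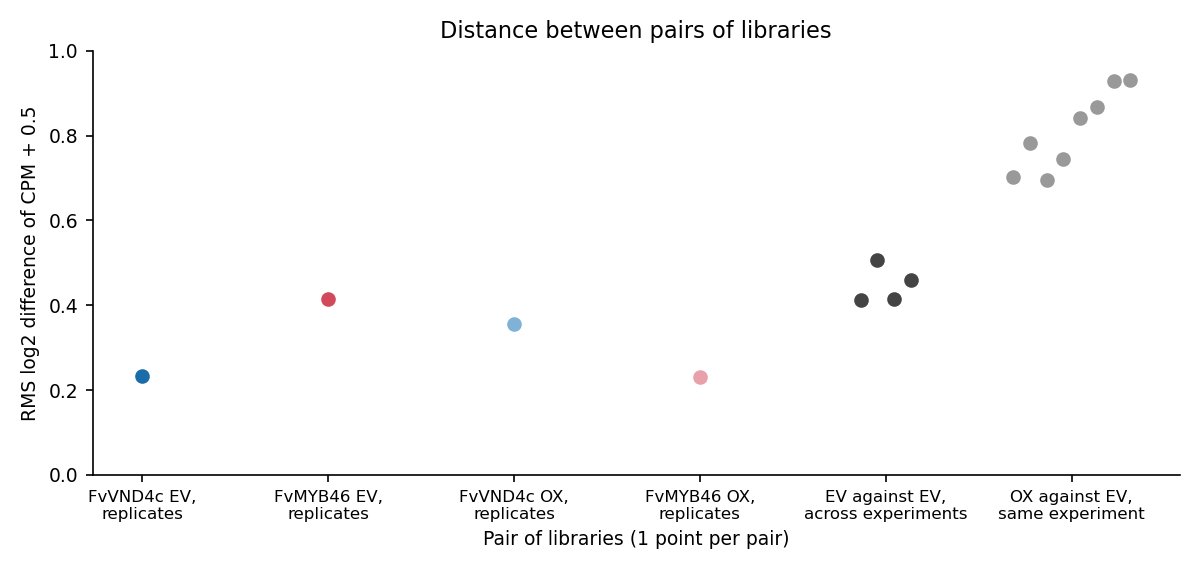
RMS difference of log2(CPM + 0.5) between pairs of libraries, 1 point per pair, for the replicate pair of each group, the 4 pairs of EV libraries across experiments and the 8 pairs of overexpression (OX) and EV within an experiment. The *FvMYB46* EV pair (0.414) lies at the lower end of the pairs across experiments (0.413 to 0.506), and the *FvVND4c* EV pair (0.232) lies below them.

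The *FvVND4c* EV replicates were near-identical, whereas the *FvMYB46* EV replicates differed in many genes and mostly in 1 direction. The chi-square of the counts over its degrees of freedom, taken over genes whose pair held 20 counts or more, was 2.60 for the *FvVND4c* EV and 17.4 for the *FvMYB46* EV, where 1 would be counting error alone. The common biological coefficient of variation, estimated by edgeR within each pair, was 0.0506 and 0.169. Neither pair was within the counting error, so no library was taken as a repeat of another. For comparison, the overexpression pairs had values of 8.18 and 0.128 (*FvVND4c*) and of 2.87 and 0.0513 (*FvMYB46*). With 1 library on each side no test of these spreads was made.

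The *FvMYB46* EV pair had the larger spread at every level of expression. At 10 to 100 CPM, the log2 ratio of the replicates had an SD of 0.160 over 8917 genes in the *FvVND4c* EV and of 0.332 over 8762 genes in the *FvMYB46* EV, against 0.118 and 0.116 from counting error alone. Above 100 CPM the SDs were 0.0950 and 0.273. At 1 to 10 CPM they were 0.317 and 0.489, against 0.354 and 0.357 from counting error. The counting values leave out the 0.5 CPM that shrinks the measured ratios most at low levels, so that class does not show whether the *FvVND4c* EV pair had spread beyond counting. The median ratio in the *FvMYB46* EV moved with the level, from -0.18 at 1 to 10 CPM to 0.13 above 100 CPM. In the *FvVND4c* EV it moved from -0.05 to 0.06. The ratio of replicate 2 to replicate 1 also varied with the gene span, with a Spearman correlation across genes of -0.39 in the *FvMYB46* EV, -0.21 in the *FvVND4c* EV, -0.21 in *FvVND4c* overexpression and 0.14 in *FvMYB46* overexpression. Genes are not independent replicates, and the part of span or level in these differences was not tested.

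Among the 11015 genes with a mean of at least 10 CPM in the *FvMYB46* EV pair, 177 (1.61%) were over 2-fold higher in replicate 1 and 4 (0.0363%) in replicate 2. In the *FvVND4c* EV pair 1 gene of 11107 (0.009%) was higher in replicate 1 and 1 (0.009%) in replicate 2. In the overexpression pairs, replicate 1 was the higher one in 95 genes (0.852%) for *FvVND4c* and in 12 genes (0.105%) for *FvMYB46*, and replicate 2 in 2 (0.0179%) and in 1 (0.00879%). At 1.5-fold the *FvMYB46* EV split was less one-sided, with 432 genes higher in replicate 1 and 205 in replicate 2.

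**Figure D2:**
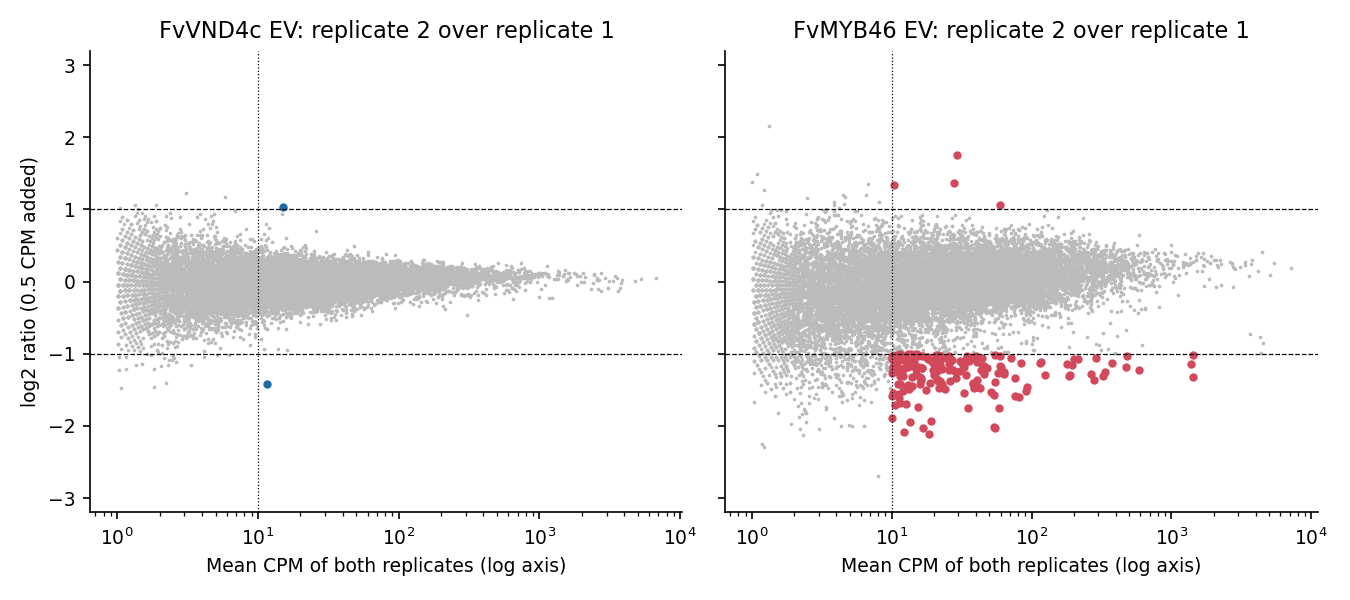
Log2 ratio of replicate 2 to replicate 1 (0.5 CPM added) against the mean CPM of the pair (log axis), for genes with a mean of at least 1 CPM in the *FvVND4c* EV (left) and the *FvMYB46* EV (right). Coloured points are genes over 2-fold apart (dashed lines) with a mean of at least 10 CPM (dotted line), 2 on the left and 181 on the right, of which 177 lie below the lower line.

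The 177 genes were set beside the control fruits of the other experiment. Since they were chosen for a gap between the *FvMYB46* EV replicates, levels elsewhere tend to fall inside that gap, and the following is a description. Over the 177 genes, replicate 1 was a median of 0.91 above the mean of the *FvVND4c* EV libraries on the log2 scale and replicate 2 was -0.38 from it. Replicate 1 exceeded both *FvVND4c* EV libraries in 170 genes (96.0%) and replicate 2 was under both in 137 (77.4%). In 130 genes (73.4%) both held, so that the *FvVND4c* EV libraries lay between the *FvMYB46* EV replicates, while among all 11015 genes, most of which have small gaps, this order was found in 880 (7.99%) and the reverse order in 1224.

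The 177 genes had a median log2 ratio of -0.11 in the *FvVND4c* EV, 0.12 in *FvVND4c* overexpression and -0.29 in *FvMYB46* overexpression. Smaller ratios than in the pair that chose them follow from the choice, and a median near 0 does not show that the replicates were close gene by gene. Of the 95 genes over 2-fold higher in replicate 1 of *FvVND4c* overexpression, 89 were among the 11015 genes and 0 among the 177. As the 177 are 1.61% of the 11015 genes, an overlap near 0 follows from the list sizes alone. The median level of the 177 genes was 21.5 CPM, compared with 40.5 CPM for all 11015 genes. The median gene span of the 177 was 2755 bp against 3769 bp. Between the EV groups, 6 of the 177 (3.39%) were called, 5 higher and 1 lower, compared with 1.13% of the 11015 genes (68 higher and 57 lower).

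The genes with the largest ratios among those with a mean of at least 10 CPM in the pair show the size of these differences. *FvH4_4g30310* (chromosome 4, 30007904 to 30013202) had 30.1 CPM in *FvMYB46* EV replicate 1 and 6.56 CPM in replicate 2, compared with 12.4 and 19.1 CPM in the *FvVND4c* EV libraries. The log2 ratio of the replicates was -2.12, and the *FvVND4c* EV libraries lay between them. *FvH4_2g24901* (chromosome 2, 20244213 to 20246889) had 19.95 and 4.32 CPM in the *FvMYB46* EV replicates and 2.93 and 3.28 CPM in the *FvVND4c* EV, a log2 ratio of -2.09. Here replicate 1 stood apart from the other 3 control libraries. Neither gene was called between the EV groups (adjusted p = 0.865 and 0.0915, edgeR with Benjamini-Hochberg adjustment).

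In the opposite direction, *FvH4_4g10450* (chromosome 4, 14147618 to 14151135) had 13.1 CPM in replicate 1 and 45.3 CPM in replicate 2 of the *FvMYB46* EV, and 20.8 and 22.3 CPM in the *FvVND4c* EV. *FvH4_7g16070* (chromosome 7, 13826663 to 13829909) had 15.5 and 40.6 CPM in the *FvMYB46* EV replicates and 19.7 and 23.7 CPM in the *FvVND4c* EV. In both genes the *FvMYB46* EV replicates enclosed the *FvVND4c* EV libraries, with log2 ratios of 1.75 and 1.36.

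The most divergent genes of the *FvVND4c* EV pair had at most 21.2 CPM in either replicate. *FvH4_5g06461* (chromosome 5, 3796785 to 3800297) had 17.0 CPM in replicate 1 and 6.08 CPM in replicate 2, a log2 ratio of -1.42, and *FvH4_6g07030* (chromosome 6, 4235187 to 4237610) had 21.2 and 10.8 CPM, a log2 ratio of -0.95. *FvH4_1g00344* (chromosome 1, 184980 to 187276) had 9.64 CPM in replicate 1 and 20.3 CPM in replicate 2, a log2 ratio of 1.04, and *FvH4_2g02431* (chromosome 2, 1962126 to 1965252) had 10.1 and 19.7 CPM, a log2 ratio of 0.93. None of the 4 was called between the EV groups.

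Genes that responded to *FvVND4c* were also compared between the *FvMYB46* EV replicates, fruits that did not carry the construct. The list rests on the fold changes of the *FvVND4c* experiment, with the spread of all 8 libraries, where 783 genes (4.17%) were called higher and 209 (1.11%) lower upon overexpression. In the *FvMYB46* EV pair, the median log2 ratio of replicate 2 to replicate 1 was -0.20 over the 783 genes and -0.26 over the 209 genes, against -0.01 over all genes tested. Both medians were below 0, but all genes at 1 to 10 CPM had a median of -0.18 in this pair, which is close to that of the raised list. Among genes with at least 10 CPM the medians were -0.03 over 204 raised genes, -0.34 over 36 lowered genes and 0.05 over all. In the other 3 pairs, the medians over the full lists were between -0.08 and 0.05.

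Between the EV groups, 420 of 18766 genes tested (2.24%) were called. Most of them had less RNA in the *FvMYB46* EV, but not when replicate 2 of that group was left out. Of the 420 genes, 304 (1.62%) were lower and 116 (0.618%) were higher in the *FvMYB46* EV than in the *FvVND4c* EV. Calls were made at a Benjamini-Hochberg adjusted p under 0.05 by edgeR's quasi-likelihood test and a fold change over 2. In the *FvMYB46* EV pair, the median log2 ratio of replicate 2 to replicate 1 was -0.17 over the lower and -0.04 over the higher genes. All genes at 1 to 10 CPM in this pair had a median of -0.18. The lower genes went from a median of 6.79 CPM in the *FvVND4c* EV to 2.11 CPM in the *FvMYB46* EV, with a median log2 fold change of -1.68. The higher genes went from 4.95 to 12.7 CPM, with a median of 1.46. Changes beyond 2 on the log2 scale were found for 98 lower and 27 higher genes.

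The called genes were mostly of low abundance. Over the 4 EV libraries the median was 4.56 CPM for the lower and 9.01 CPM for the higher genes, against 15.8 CPM for all genes tested. Only 11 of the lower and 2 of the higher genes reached 100 CPM, whereas 2228 of all genes tested did. The groups did not overlap in any of the 420 genes. This alone is common with 2 libraries a side, as the *FvMYB46* EV lay wholly below the *FvVND4c* EV in 4645 genes (24.8%) and wholly above it in 4135 (22%). Called genes were found on all 7 chromosomes, where 1.95% to 2.56% of the genes tested were called. Their median span was 2366 bp for the lower and 1807 bp for the higher genes, against 3220.5 bp for all, and the spans of 27 of the 304 (8.88%) and 7 of the 116 (6.03%) overlapped another gene, whose reads cannot be told apart, as did 14.3% of all genes tested.

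**Figure D3:**
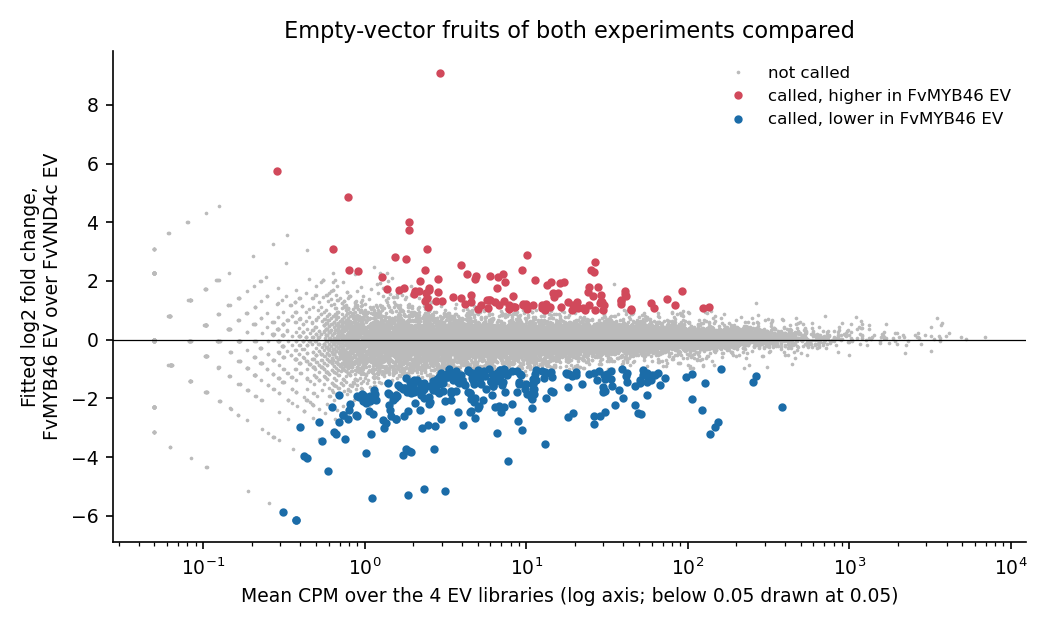
Fitted log2 fold change of the *FvMYB46* EV over the *FvVND4c* EV against the mean CPM over the 4 EV libraries (log axis), 1 point per gene tested. The 304 genes called lower (blue) and the 116 called higher (red) lie mostly below 100 CPM.

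These numbers depended on single libraries. Without *FvVND4c* EV replicate 1 or 2, 204 or 189 genes were called, and without *FvMYB46* EV replicate 1, which was the closer one to the *FvVND4c* EV, 751 were called. Without *FvMYB46* EV replicate 2 the split was 274 higher and 222 lower. With edgeR on the 4 EV libraries alone, 68 genes were higher and 160 lower.

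Among called genes with 1 CPM or more on average over the 4 EV libraries, the largest fitted fold changes were found in genes that were nearly silent in 1 of the control groups. *FvH4_7g28950* (chromosome 7, 21384363 to 21385052) had 5.95 and 5.76 CPM in the *FvMYB46* EV replicates and no count in either *FvVND4c* EV library. It was also low in the overexpression libraries, with 0.526 and 0.327 CPM for *FvVND4c* and 0.596 and 0.679 CPM for *FvMYB46*. It was therefore high in the *FvMYB46* control fruits alone (adjusted p = 7.50e-05, edgeR, Benjamini-Hochberg). Their mean was 46.4 times 3 counts pooled over the *FvVND4c* EV group, and counting error alone put the ratio at no less than 37.3 (95% exact binomial limit). It was the single gene with at least 1 CPM in 1 EV group and no count in the other.

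*FvH4_1g09180* (chromosome 1, 4892045 to 4893214) had 3.52 and 3.60 CPM in the *FvMYB46* EV and 0.430 CPM and no count in the *FvVND4c* EV. The log2 fold change was 4.01 (standard error 0.63, adjusted p = 0.00652, edgeR, Benjamini-Hochberg). It was 3.02 without *FvVND4c* EV replicate 2. Without replicate 1, which held all counts of that group, it was 8.36, a fitted value against a library with no count that is no bound. Both overexpression groups had at most 0.425 CPM.

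*FvH4_2g16130* (chromosome 2, 14056877 to 14057686) had 2.50 and 1.89 CPM in the *FvVND4c* EV, while the *FvMYB46* EV libraries together held 1 count. The ratio of the pooled counts was 53.4, and counting error alone gave it bounds of 9.17 and 2149 (95% exact binomial interval, adjusted p = 0.00402, edgeR, Benjamini-Hochberg). The overexpression libraries lay between 0.849 and 2.37 CPM, so the *FvMYB46* control fruits stood apart from all others.

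*FvH4_7g34120* (chromosome 7, 24092612 to 24093841) had 3.62 and 3.61 CPM in the *FvVND4c* EV and 2 counts in the *FvMYB46* EV, both in replicate 1. Their pooled counts gave a ratio of 44.1 with bounds of 11.9 and 370.4 (95% exact binomial interval, adjusted p = 1.46e-04, edgeR, Benjamini-Hochberg). With 7.90 and 7.85 CPM upon *FvVND4c* and 68.6 and 76.8 CPM upon *FvMYB46* overexpression, this gene had more RNA in all 4 overexpression libraries than in any control fruit. Fitted log2 fold changes of *FvH4_2g16130* and *FvH4_7g34120* were -5.41 and -5.29, and -4.54 and -4.34 without *FvMYB46* EV replicate 2. Without replicate 1 they were -7.66 and -8.38, fitted values against a library with no count of either gene that are no bounds.

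Among the called genes with most counts, the replicates of each group were close together. *FvH4_2g07081* (chromosome 2, 5854979 to 5857043) had 635 and 648 CPM in the *FvVND4c* EV and 123 and 137 CPM in the *FvMYB46* EV. The log2 fold change was -2.30 (standard error 0.12, adjusted p = 1.20e-05, edgeR, Benjamini-Hochberg). The overexpression libraries had 379 and 440 CPM with *FvVND4c* and 877 and 941 CPM with *FvMYB46*, so the order of the experiments was the opposite there.

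*FvH4_4g19050* (chromosome 4, 22768259 to 22769333) had 346 and 401 CPM in the *FvVND4c* EV and 155 and 163 CPM in the *FvMYB46* EV, which is -1.23 on the log2 scale (standard error 0.13, adjusted p = 3.20e-04, edgeR, Benjamini-Hochberg). All 4 overexpression libraries were above the control fruits, at 597 to 935 CPM.

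*FvH4_5g35620* (chromosome 5, 26062677 to 26064379) had 83.0 and 87.4 CPM in the *FvVND4c* EV and 183 and 187 CPM in the *FvMYB46* EV (log2 fold change 1.12, standard error 0.10, adjusted p = 1.67e-04, edgeR, Benjamini-Hochberg). With 148 to 178 CPM, the overexpression libraries lay between the control groups. *FvH4_7g24980* (chromosome 7, 19166223 to 19171656), whose span overlaps another gene, had 80.2 CPM in both *FvVND4c* EV libraries and 157 and 178 CPM in the *FvMYB46* EV (log2 fold change 1.06, standard error 0.10, adjusted p = 1.46e-04, edgeR, Benjamini-Hochberg). Its overexpression libraries held 52.2 to 77.5 CPM, less than any control library, and without *FvMYB46* EV replicate 2 its log2 fold change of 0.97 was under the threshold.

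The overexpression libraries of the same experiments are 4 further libraries that do not enter the fold changes between the control fruits, although they share the estimate of the spread. Between them, construct and experiment cannot be told apart. Of the 304 genes that were lower in the *FvMYB46* EV, 21 (6.91%) were called lower and 66 (21.7%) were called higher in *FvMYB46* than in *FvVND4c* overexpression, and 217 did not pass the test. Over all genes tested, 3.19% were called lower and 6.33% higher. Of the 116 genes that were higher in the *FvMYB46* EV, 16 (13.8%) were called higher, 18 (15.5%) were called lower and 82 were not called. The median log2 fold change between the overexpression groups was 0.35 over the 304 genes, -0.21 over the 116 genes and 0.03 over all.

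Between the overexpression groups, the lower genes were more often called in the opposite direction (66) than in the same direction (21). The higher genes were nearly even (18 and 16). Same-direction shares were still above those of all genes tested, 6.91% against 3.19% for the lower and 13.8% against 6.33% for the higher genes. Opposite-direction shares were 21.7% against 6.33% and 15.5% against 3.19%. In total, 37 of 420 genes were called in the same direction in both comparisons and 84 in opposite directions. These were 19 and 49 without *FvVND4c* EV replicate 1, 18 and 45 without its replicate 2, and 59 and 135 without *FvMYB46* EV replicate 1. Without *FvMYB46* EV replicate 2 the same and the opposite direction were close to even. Without *FvMYB46* overexpression replicate 2 fewer genes were called in the same direction. The difference between the comparisons was itself called in 297 of the 420 genes, in 220 (72.4%) of the lower and 77 (66.4%) of the higher genes, against 9.62% of all genes tested. This test contains the difference that chose the genes, so the share is a description.

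**Figure D4:**
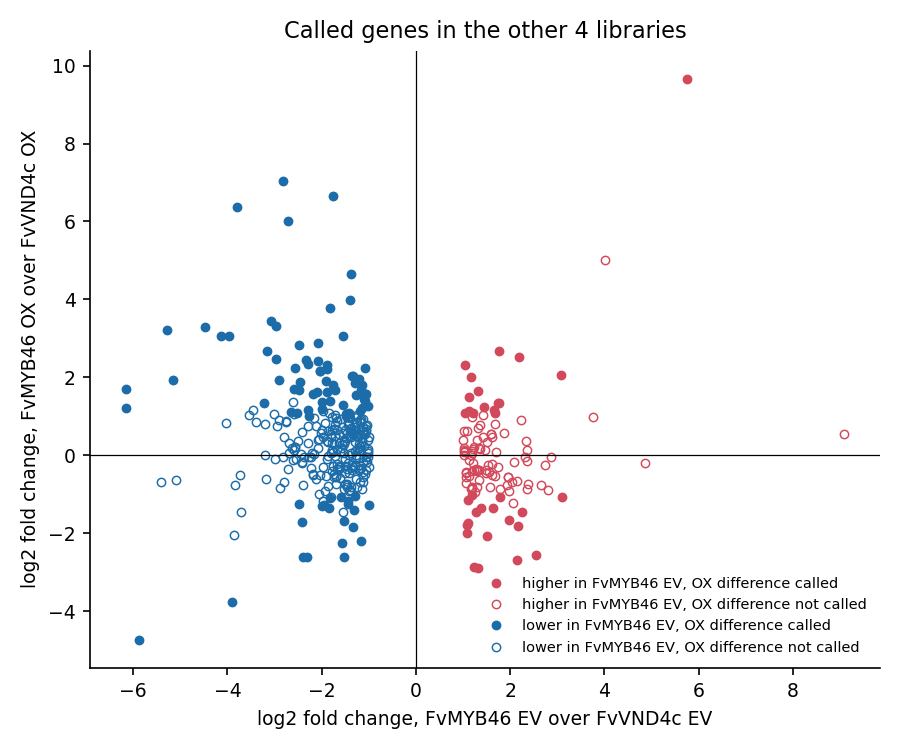
Log2 fold change between the overexpression (OX) groups against that between the EV groups, for the 116 genes called higher (red) and the 304 called lower (blue) in the *FvMYB46* EV. Filled points were also called between the overexpression groups, 37 of them in the same direction and 84 in the opposite one.

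The position of each control group among the other 6 libraries was also counted. Of the 304 lower genes, the *FvMYB46* EV lay under all 6 other libraries in 229 (75.3%) and the *FvVND4c* EV lay above all 6 others in 101 (33.2%), with both in 44 and neither in 18. The shares over all genes tested were 7.72% and 7.67%. Among the 4645 genes whose EV groups were ordered the same way, they were 31.2% and 31.0%. Of the 116 higher genes, the *FvMYB46* EV lay above all others in 60 (51.7%) and the *FvVND4c* EV under all others in 70 (60.3%), against 7.07% and 6.35% of all genes tested and 32.1% and 28.8% of the 4135 genes ordered the same way. In both lists the control group with less RNA was the one that more often lay outside all others. A control group apart from the rest and a response of these genes to the constructs cannot be told apart here.

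The following genes were called in the same direction between the EV groups and between the overexpression groups, where construct and experiment cannot be told apart. Within experiments, *FvH4_5g01360* was called higher upon *FvVND4c* (log2 fold change 1.88) and *FvMYB46* (1.67), and *FvH4_3g34830* upon *FvMYB46* (3.91). *FvH4_1g23250* and *FvH4_4g27330* were called in neither experiment. *FvH4_1g23250* (chromosome 1, 15112694 to 15113495) had 3.53 and 2.96 CPM in the *FvVND4c* EV, 0.335 and 0.0800 CPM in the *FvMYB46* EV, 2.11 and 1.64 CPM with *FvVND4c* and 0.170 and 0.0849 CPM with *FvMYB46*. The log2 fold change was -3.91 between the EV groups (standard error 0.49, adjusted p = 0.00120) and -3.78 between the overexpression groups (standard error 0.60, adjusted p = 0.00112, edgeR, Benjamini-Hochberg). All 4 libraries of the *FvMYB46* experiment were below all 4 of the *FvVND4c* experiment.

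*FvH4_5g01360* (chromosome 5, 835037 to 836917) had 1.55 and 1.15 CPM in the *FvVND4c* EV, 0.252 and 0.240 CPM in the *FvMYB46* EV, 4.39 and 5.67 CPM with *FvVND4c* and 0.852 and 0.764 CPM with *FvMYB46*. The log2 fold changes were -2.40 (adjusted p = 0.0190) and -2.61 (adjusted p = 2.07e-04, edgeR, Benjamini-Hochberg). The call between the EV groups was lost without either *FvVND4c* EV replicate (adjusted p = 0.173 and 0.0716) and without *FvMYB46* EV replicate 2 (adjusted p = 0.0751, edgeR, Benjamini-Hochberg).

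*FvH4_4g27330* (chromosome 4, 28375769 to 28377173) had 1.29 and 2.22 CPM in the *FvVND4c* EV, 11.4 and 4.72 CPM in the *FvMYB46* EV, 2.28 and 2.51 CPM with *FvVND4c* and 12.8 and 14.6 CPM with *FvMYB46*. Its log2 fold change between the EV groups was 2.18 (adjusted p = 0.0146), 1.42 without *FvMYB46* EV replicate 1, and no longer called without *FvVND4c* EV replicate 1 or 2 (adjusted p = 0.170 and 0.0668, edgeR, Benjamini-Hochberg). *FvH4_3g34830* (chromosome 3, 30110771 to 30114131) had no count in any of the 4 *FvVND4c* libraries. It had 0.671 and 0.480 CPM in the *FvMYB46* EV, a mean of 4.56 times 3 counts pooled over the *FvVND4c* EV group (95% exact binomial limit of the ratio 3.23, adjusted p = 0.0274, edgeR, Benjamini-Hochberg), and 9.20 and 8.32 CPM with *FvMYB46*. With 14 counts over the *FvMYB46* EV libraries, its call was lost without either *FvVND4c* EV replicate (adjusted p = 0.154 and 0.149) and without either *FvMYB46* overexpression replicate (adjusted p = 0.0722 and 0.0703, edgeR, Benjamini-Hochberg).

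Some called genes lay next to each other in the order of the genes tested. Over all genes tested, 1.62% were called lower and 0.618% higher, and a gene can have a neighbour on either side. Some called genes thus adjoin by position alone, and the share that this would give was not tested. Of the 420 genes, 51 (12.1%) had a neighbour among the genes tested that was called in the same direction, 40 of them lower and 11 higher, in 21 runs. The number fell to 21 without either *FvVND4c* EV replicate and to 32 without either *FvMYB46* overexpression replicate, and was 111 without *FvMYB46* EV replicate 1. There were 5 runs of at least 3 genes, with 19 genes in all. Neighbouring genes can be copies of each other, between which reads may be shared, and this was not analysed here.

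The longest run held 6 genes on chromosome 4 from 22764076 to 22774051, 3 on each strand, with no other gene between them. All 6 were lower in the *FvMYB46* EV, by log2 fold changes from -1.05 to -2.62. The gene with the largest change, from 22765564 to 22766987, had 38.8 and 51.0 CPM in the *FvVND4c* EV and 7.13 and 7.52 CPM in the *FvMYB46* EV. In each of the 6, all overexpression libraries were above the libraries of both EV groups. Across the run they had 17.7 to 736.9 CPM for *FvVND4c* and 36.6 to 934.6 CPM for *FvMYB46*, and 1 gene was called between the overexpression groups.

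On chromosome 6 from 1712884 to 1743492, 3 genes on the plus strand were lower in the *FvMYB46* EV, by -1.08 to -2.49. Within this stretch lay 3 more genes that were not tested. The first called gene had 169 and 170 CPM in the *FvVND4c* EV and 37.5 and 45.8 CPM in the *FvMYB46* EV. All 3 were called higher in *FvMYB46* than in *FvVND4c* overexpression, with 470 and 476 CPM against 109 and 101 CPM in the first, so their order was the opposite of that between the control fruits. The 3 genes on chromosome 1 from 15553756 to 15562836 were lower by -1.33 to -2.03, and 2 of them were called higher in *FvMYB46* overexpression.

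The single run of higher genes lay on chromosome 5 from 27023148 to 27032074, where 3 genes on the minus strand differed by 1.79 to 3.09. The first had 11.0 and 13.9 CPM in the *FvVND4c* EV and 41.0 and 45.2 CPM in the *FvMYB46* EV. Between the overexpression groups all 3 were called in the opposite direction. The last run, 4 genes on chromosome 7 from 12488659 to 12525136, was weakly expressed, with 1.38 to 5.17 CPM in the *FvVND4c* EV and 0.0800 to 1.01 CPM in the *FvMYB46* EV. Within it lay 2 more genes that were not tested. None of the 4 called genes was called between the overexpression groups, and the spans of 2 of them overlap each other.

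**Figure D5:**
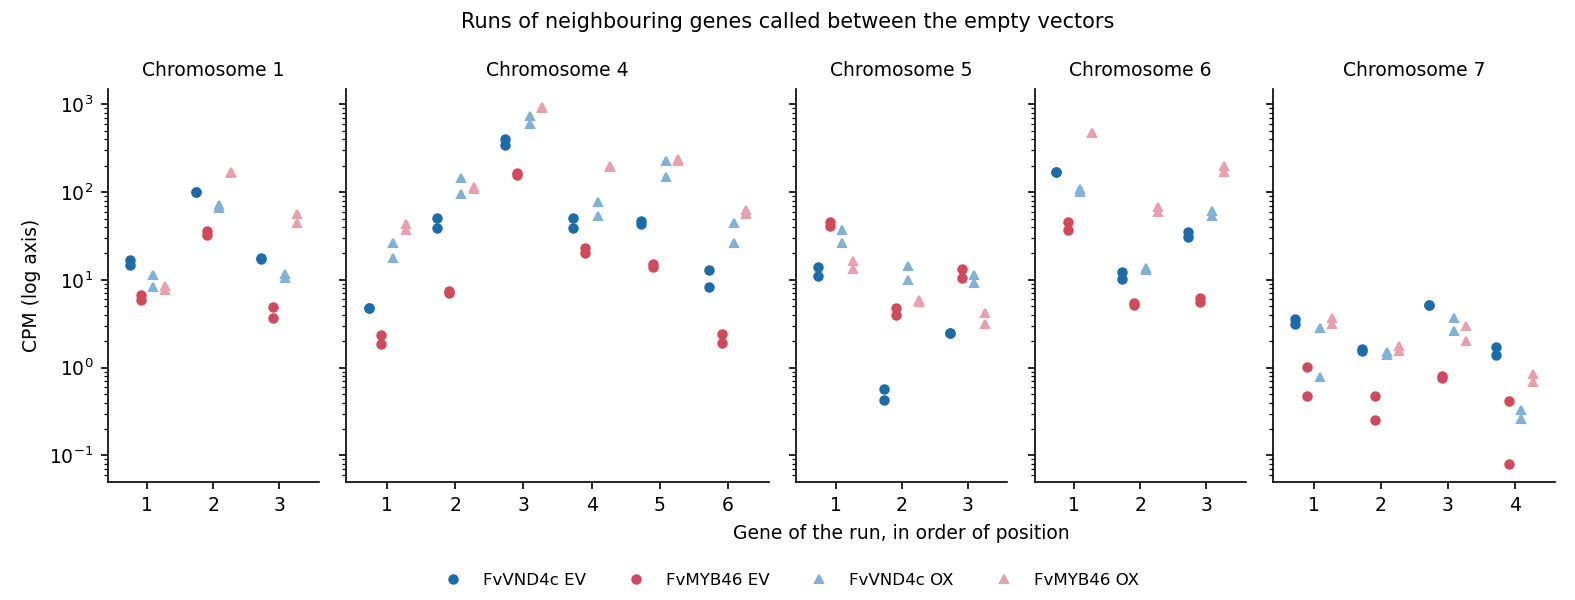
CPM in each of the 8 libraries (log axis) for the 19 genes in the 5 runs of at least 3 neighbouring genes called between the EV groups, in order of position. Circles are EV and triangles overexpression (OX) libraries. The *FvMYB46* EV (red circles) lies below the *FvVND4c* EV (blue circles) in 4 runs and above it in the run on chromosome 5.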

How the data were processed

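RNA of *F. vesca* fruit was sequenced in 8 libraries, of which the 4 EV libraries are described here. The deposited files of counts hold whole reads for 34009 genes. The authors trimmed reads with fastp 0.20.1, mapped them with HISAT2 2.2.1 to the v4.0.a2 genome, took out PCR duplicates with SAMtools 1.9 and ran featureCounts 2.0.3. Its strand option is not stated, and the spans of 3972 genes overlap another. The deposited TPM files, made by the authors from these counts over whole gene spans, hold 17698 genes and served only as an alternative.

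Counts were tested with edgeR 4.0.16 in R 4.3.3 (filterByExpr, TMM, quasi-likelihood test, 4 groups, no covariate) on all 8 libraries, which share 1 estimate of the spread, and 18766 genes (55.2%) were kept. The common biological coefficient of variation over all 8 was 0.107. This is below that of the *FvMYB46* EV pair (0.169) and above that of the *FvVND4c* EV pair (0.0506). P-values between the EV groups thus do not measure the spread of these pairs alone. A call required an adjusted p (Benjamini-Hochberg, over all genes tested) under 0.05 and a log2 fold change beyond 1. A standard error is the fold change over the square root of F, which is approximate. Permuting 2 against 2 libraries can give no two-sided p under 0.333 and was not done. Replicate ratios used 0.5 CPM added. The code was tested on simulated data.

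Genes given by identifier are, for each of the following, the 2 higher and 2 lower genes with the largest values. These are the fold change and the mean CPM among genes called between the EV groups with 1 CPM or more on average over the 4 EV libraries and no overlap of the groups, the smaller of the fold changes among genes called in the same direction in the EV and the overexpression comparison with 1 CPM or more on average over all 8 libraries, and the replicate ratio in each EV pair among genes with a mean of at least 10 CPM in it. The libraries and these rules were chosen with earlier results of these data known. Of 34009 identifiers, 0 matched the gene table at hand (24946 genes of another assembly). Alternatives were DESeq2 1.42.0, limma 3.58.1, other scaling, filters and thresholds, a replicate block, and leaving out each library.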

Additional observations from a re-analysis of the deposited data

Results flagged for a closer look

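For 7 of the genes given by identifier that were called between the EV groups, this difference itself differed from that between the overexpression groups. The test was edgeR's quasi-likelihood test, with Benjamini-Hochberg adjustment over all 18766 genes tested. The test contains the EV difference by which these genes were chosen, and 9.62% of all genes passed it. The difference of the log2 fold changes, EV minus overexpression, was 8.54 for *FvH4_7g28950*, which was high in the *FvMYB46* control fruits alone and for which it depends on the zero counts of the *FvVND4c* EV. It was -4.73 for *FvH4_2g16130* and -8.49 for *FvH4_7g34120*, both nearly silent in the *FvMYB46* EV. For the genes with most counts it was 1.23 (*FvH4_5g35620*), 1.53 (*FvH4_7g24980*), -3.45 (*FvH4_2g07081*) and -1.70 (*FvH4_4g19050*). Among the genes chosen by their replicate ratio, *FvH4_4g30310* passed the test too, at 4.73. It was not called between the EV groups (log2 fold change 0.21), and its *FvMYB46* EV replicates were far apart. In *FvH4_2g07081* the replicates of each of the 4 groups were close together, and the *FvMYB46* experiment had the lowest level in control fruits and the highest with the construct. Construct and experiment cannot be told apart in the overexpression groups. Groups of 2 libraries are too small to look for a library that stands apart gene by gene.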

How the results depend on the processing

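Of the 420 genes called between the EV groups (116 higher, 304 lower), 419 were called again in the same direction with RLE scaling, 317 with DESeq2 on all 8 libraries, 273 with limma's voom and sample weights and 227 with edgeR on the 4 EV libraries. Called genes numbered 228 (68 higher, 160 lower) with edgeR on the 4 EV libraries, 249 (166 lower) with DESeq2 on these 4, 278 (172 lower) with voom weights, 847 (275 and 572) with unadjusted p and 818 (314 and 504) with no fold threshold. DESeq2 on the 4 with unadjusted p gave 184 higher and limma on log2(TPM + 1) gave 71. Genes called in the same direction between the overexpression groups (37) were 22 with log2(TPM + 1), 111 with unadjusted p and 119 with no fold threshold, those in the opposite direction (84) were 55 with voom weights, 55 with at least 10 counts in every library, 162 and 275, and those with a called difference of differences (297) were 557 and 581. Called genes next to another (51) were 31 with DESeq2 on all 8 and 21 on the 4, 26 with voom weights, 30 with no filter, 27 with edgeR on the 4, 124 with unadjusted p, 121 with no fold threshold and 105 within 50 kb. Genes over 2-fold apart between replicates were 32, 0 and 6 in the *FvVND4c* EV (main 2) at a minimum of 1 CPM, of 50 CPM and on the TPM scale, and 610 and 42 in the *FvMYB46* EV (main 181) at 1 and 50 CPM. Genes silent in 1 EV group (1) were 13 at a minimum of 0.5 CPM. Leaving out 1 library at a time, with a lone library assumed to vary like the other groups, gave 189 to 751 called genes, 53 to 274 higher and 131 to 602 lower, 18 to 67 in the same and 45 to 135 in the opposite direction between the overexpression groups, 151 to 536 with a called difference of differences and 21 to 111 next to another. Of 244 refits of the genes given by identifier, 0 reversed a direction and 19 lost a call, in 4 genes (*FvH4_5g01360*, *FvH4_3g34830*, *FvH4_4g27330* and *FvH4_7g24980*). Fits whose filter removed the gene are not among the 244. At least 10 counts in every library removed *FvH4_7g28950*, *FvH4_1g09180*, *FvH4_2g16130*, *FvH4_7g34120*, *FvH4_3g34830*, *FvH4_1g23250* and *FvH4_5g01360*. The filter of edgeR on the 4 EV libraries removed *FvH4_3g34830*.

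Replicate numbers are shared between the groups, but the labels name no common batch or day, so they were not taken as pairs. Same-numbered libraries did deviate together (Pearson correlation over 11327 genes of 0.37 between the EV groups and 0.18 to 0.45 over all pairs of groups). With the replicate block, 529 genes were called (153 higher, 376 lower), 77 next to another, 47 in the same and 99 in the opposite direction between the overexpression groups, and 419 of the 420 were called again.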
